A study of Mus musculus with 12 samples.

Results

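RNA polymerase III (Pol III) was mapped along its genes in mouse liver with 4 chromatin immunoprecipitation libraries, 2 against the subunit RPC1 and 2 against the subunit RPC4, and its coverage was set against 2 input libraries of chromatin that was not precipitated. These 6 libraries belong to a series of 12, and they were chosen by their titles. Every group came from C57/BL6 males of 12 to 14 weeks, kept under 12 h of light and 12 h of dark for 2 weeks and then entrained for 7 days with food only from Zeitgeber time 12 to 24. 5 mice were killed at Zeitgeber time 2 and 5 more, as the biological replicate, at Zeitgeber time 26. The labels do not say which replicate belongs to which time, or whether livers were pooled, so p-values measure the spread between libraries only. Both antibodies were raised by the laboratory against peptides from the C-terminus of their subunit.

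Pol III makes short, abundant RNAs that do not code for protein. It is brought to 5S rRNA genes by TFIIIA (type 1 promoters, inside the gene), to tRNA genes by TFIIIC, which binds an A box and a B box inside the gene (type 2), and to genes such as U6 and 7SK by elements that lie upstream of the start (type 3). It stops at a run of T on the coding strand just after the gene. RPC1 is the largest subunit and forms much of the catalytic centre, whereas RPC4 is one of the subunits found only in Pol III and is known for its part in termination and reinitiation. In liver, as in other tissues, a set of tRNA genes is used at any time and other copies lie silent.

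Each deposited file lists read coverage over the same 532 stretches of the mm9 genome, 370 to 1170 bp long. Most stretches are a gene with 150 bp on either side. Of the 532, 398 held tRNA genes (376 a single gene, 22 several), 50 held 5S rRNA genes, 5 U6, 2 Y RNA, 2 7SL, and 1 each 7SK, RNase MRP RNA, RNase P RNA, U6atac and vault RNA. No gene could be assigned to the other 70, which are called unmatched. Names of tRNA genes were predicted from a cloverleaf fold and carry the anticodon in parentheses. Some stretches had room for 1 gene and held no annotated small RNA gene (389 stretches). There the search looked only for a cloverleaf that fills the part between the 150 bp flanks, and 376 had one. No other position was allowed, so this place in the stretch does not test the naming. The files cover no gene by which the liver origin could be checked. A bulk signal cannot tell fewer occupied cells from lower occupancy per cell.

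The genes with the most Pol III are shown first, because the results turn on how far these short sequences differ in load. The tRNA-Ala (AGC) gene on chromosome 5 had the highest coverage of all stretches, tRNA-His (GTG) on chromosome 2 the second highest, and tRNA-Met (CAT) on chromosome 13 the highest fold over input. The selenocysteine tRNA gene, tRNA-Sec (TCA), was the only copy found. Sequences are given 5′ to 3′ on the gene's strand from the mm9 genome, with the B box in capitals.
tRNA-Ala (AGC), chr5:31190888-31190960, plus strand: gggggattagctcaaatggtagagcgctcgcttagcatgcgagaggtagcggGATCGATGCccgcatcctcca
tRNA-His (GTG), chr2:122203704-122203775, plus strand: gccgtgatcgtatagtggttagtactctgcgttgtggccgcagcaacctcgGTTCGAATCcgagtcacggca
tRNA-Met (CAT), chr13:21802863-21802934, plus strand: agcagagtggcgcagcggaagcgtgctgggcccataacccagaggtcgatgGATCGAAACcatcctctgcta
tRNA-Sec (TCA), chr7:19886593-19886678, plus strand: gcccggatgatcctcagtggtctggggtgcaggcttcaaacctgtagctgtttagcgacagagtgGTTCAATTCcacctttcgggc

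Coverage, in reads per base averaged over a stretch and therefore already per length, spanned a far wider range in the Pol III libraries than in input. The mean of the 4 Pol III libraries ran from 0.079 to 294.2 with a median of 15.19. Of the stretches, 10% lay at or under 0.68, 25% at or under 1.64, 75% at or under 69.1 and 90% at or under 130.1. Mean input coverage had a median of 1.036, its 90% quantile was 1.78 and its highest value 6.05. The ratio of the 90% to the 10% quantile was 242.1 and 179.8 in the RPC1 libraries and 231.9 and 210.1 in the RPC4 libraries, against 5.70 and 5.996 in input. The 2 input libraries held only 3563 and 3365 reads' worth of coverage over these stretches (5.41 and 5.50 reads for a median stretch), against 82276 to 160705 in the Pol III libraries, so input is by far the less precise side of each ratio. Between replicates, the median absolute log2 difference was 0.49 for RPC1, 0.25 for RPC4 and 0.48 for input. RPC1 replicate 1 was higher than replicate 2 by a median log2 of 0.43 over all stretches.

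**Figure D1:**
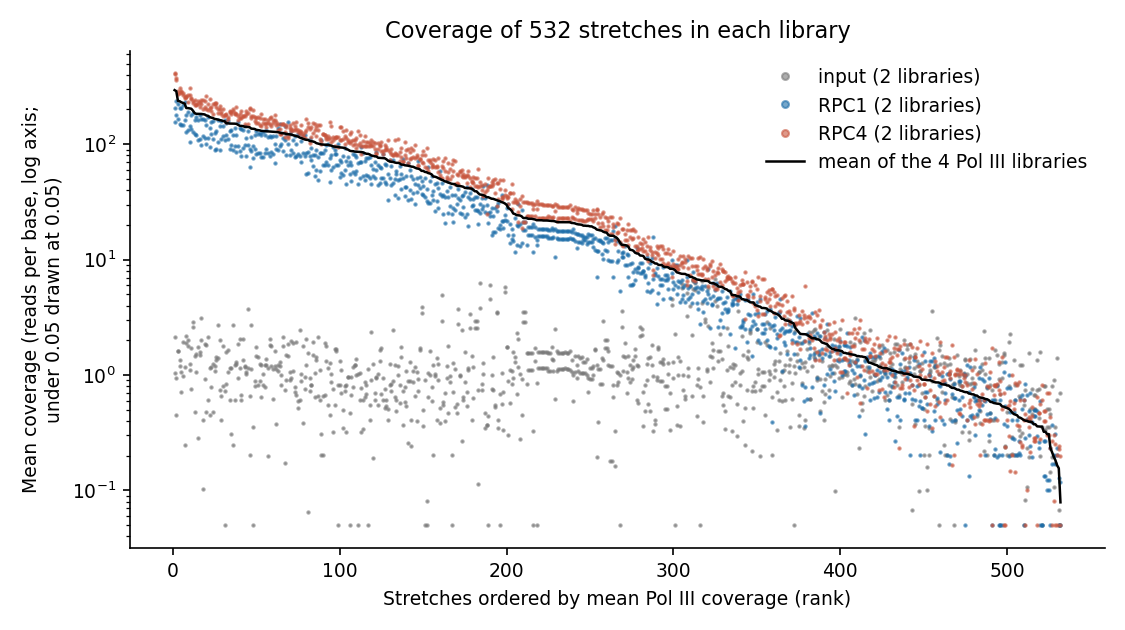
Mean coverage (reads per base, log axis) of each of the 532 stretches in the 2 RPC1, 2 RPC4 and 2 input libraries, with stretches ordered by the mean of the 4 Pol III libraries (black line). Values under 0.05 are drawn at 0.05. Pol III coverage falls from 294.2 to 0.079 without a step while input stays near its median of 1.036, and the flat part near rank 230 is the 5S rRNA genes.

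At the top of this range stood single tRNA genes. The stretch of tRNA-Ala (AGC) (chr5:31190738-31191110), whose gene starts 107 bp from a start of the protein-coding gene Agbl5, had coverage of 204.2 and 155.4 in the RPC1 libraries, 405.9 and 411.2 in the RPC4 libraries, and 1.05 and 2.14 in input. All 4 Pol III values lay above both inputs, and RPC4 was higher than RPC1. The log2 fold over input was 7.18 (SE 0.25, limma, adjusted p = 3.78e-08). At tRNA-His (GTG) (chr2:122203554-122203925), 8806 bp from the start of Shf, the values were 237.9, 177.4, 378.2 and 360.3 in RPC1 and RPC4, and 0.45 and 0.94 in input, a log2 fold of 8.21 (SE 0.25). tRNA-Met (CAT) on chromosome 13 (chr13:21802713-21803084) had 164.6, 117.1, 202.9 and 243.9 against 0.10 and 0.41, a log2 fold of 8.60 (SE 0.29). By coverage alone it stood at rank 18. Also among the highest by coverage, tRNA-Arg (ACG) on chromosome 9 reached 237.4 ± 54.3 (SD, n = 4), tRNA-Ser (GCT) on chromosome 2 reached 235.9 ± 71.5 and a second tRNA-Met (CAT), on chromosome 8, 231.0 ± 67.3. These SDs include the difference between the antibodies.

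Each stretch was then compared with input. Libraries were scaled to the median coverage of the 133 stretches (25%) with the lowest coverage in the 2 libraries titled H3K4, which take no part in the comparison. Their antibody field names H3K36me3, so the mark they measure is uncertain. limma was fitted to log2(scaled coverage + 0.2) for the 478 stretches above the lowest 10%, with Benjamini-Hochberg adjustment. Pol III was above input in 360 of 478 stretches (75.3%) and below input in 0 (0%, also 0 at an unadjusted p under 0.05). The median log2 fold was 3.64 and the median SE 0.315. Against input, RPC1 alone was above in 356 stretches (74.5%) and RPC4 alone in 362 (75.7%), with 2 and 1 below; both comparisons use the same 2 inputs. The split depended on the scaling. Because the files hold only stretches at Pol III genes, their totals are set by Pol III itself: scaled to file totals, 155 stretches were above and 267 below, with the median log2 fold at -1.15. With median-of-ratios factors, 200 were above input and 179 under it (median 0.26). Among 82 named stretches, 25 changed sign with file totals and 18 with median-of-ratios scaling. Only changes where the fold passed the threshold in at least 1 of the 2 fits were counted. A few of the 82 fell under the filter with these scalings. Unscaled coverage gave 367 and 1 (median 3.77), and anchoring to the stretches lowest in Pol III gave 373 and 0 (median 3.93).

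A stretch was called loaded where the adjusted p was under 0.05 and the log2 fold at least 1, and empty where the upper end of the 95% interval of the log2 fold lay under 1, since a missed test does not show an empty gene. The rest of the tested stretches were called intermediate. By these rules 358 stretches were loaded (74.9%), 69 empty (14.4%) and 51 intermediate (10.7%), and 54 were too low to test. The filter used mean scaled coverage over all 6 libraries, so stretches low in input were tested only where Pol III coverage was high enough. This raises the loaded share of tested stretches. Loaded stretches were 67.3% of all 532, and without the filter 359 were loaded, 93 empty and 80 intermediate. Loaded stretches had median coverage of 34.84 and 25.24 in RPC1, 46.2 and 50.01 in RPC4, and 1.07 and 0.98 in input. Empty stretches had 1.11 and 0.90 in RPC1, 1.10 and 1.48 in RPC4, and 1.21 and 1.38 in input, so that Pol III and input medians overlapped. All 4 Pol III libraries lay above both inputs in 370 of the 532 stretches. These were 357 of 358 loaded ones, 9 of 51 intermediate, 1 of 69 empty and 3 of 54 not tested. The states were defined from the same libraries, so these counts follow in part from the calls and lend them no support. File totals as the scale left 132 loaded and 293 empty. With 1 variance weight per group, an alternative added after the data were seen, 352 were loaded, 27 empty and 99 intermediate.

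No gap separated loaded from empty genes. In log2 fold, the counts of tested stretches were 7 from -2 to -1, 58 from -1 to 0, 53 from 0 to 1, 37 from 1 to 2, 42 from 2 to 3, 77 from 3 to 4, 20 from 4 to 5, 63 from 5 to 6, 88 from 6 to 7, 28 from 7 to 8 and 5 from 8 to 9. There was thus a low mode around 0 and a high mode between 6 and 7, with stretches at every fold between. The scaling gave the 133 stretches lowest in the libraries titled H3K4 the same median coverage in every library. The place of the low mode at 0 rests on that choice, and whether those stretches carry Pol III was not tested. The peak from 3 to 4 came from the 5S rRNA genes: without them that bin fell from 77 to 37. The widest empty interval among neighbouring values was 0.295, near the top, between tRNA-Lys (CTT) on chromosome 12 (7.72) and tRNA-Arg (TCG) on chromosome 7 (8.02). Between folds of 0 and 6 it was 0.230, from tRNA-Asn (GTT) on chromosome 3 (4.29) to tRNA-Arg (TCG) on chromosome 13 (4.52), which is smaller than the median SE of a single fold. With file totals these 2 folds were -0.12 and -0.25. The loaded stretch with the lowest fold was unmatched (chromosome 3, 94738985), with Pol III coverage of 2.95, input of 1.14 and a log2 fold of 1.09. The next was tRNA-Trp (CCA) on chromosome 11 (3.22 against 1.23, log2 fold 1.11). The highest intermediate stretch, tRNA-Lys (TTT) on chromosome 13, had a larger fold of 1.28 but an SE of 0.68. The highest empty one, tRNA-Glu (TTC) on chromosome 3 (96150448), had 1.56 against 1.19 and a log2 fold of 0.19. With file totals all 4 of these stretches had a fold below 0 (-3.52, -3.51, -2.63 and -4.29). The lowest empty one was tRNA-Cys (GCA) on chromosome 6 (48299611), with 0.53 against 1.52 and a log2 fold of -1.55 (SE 0.69).

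**Figure D2:**
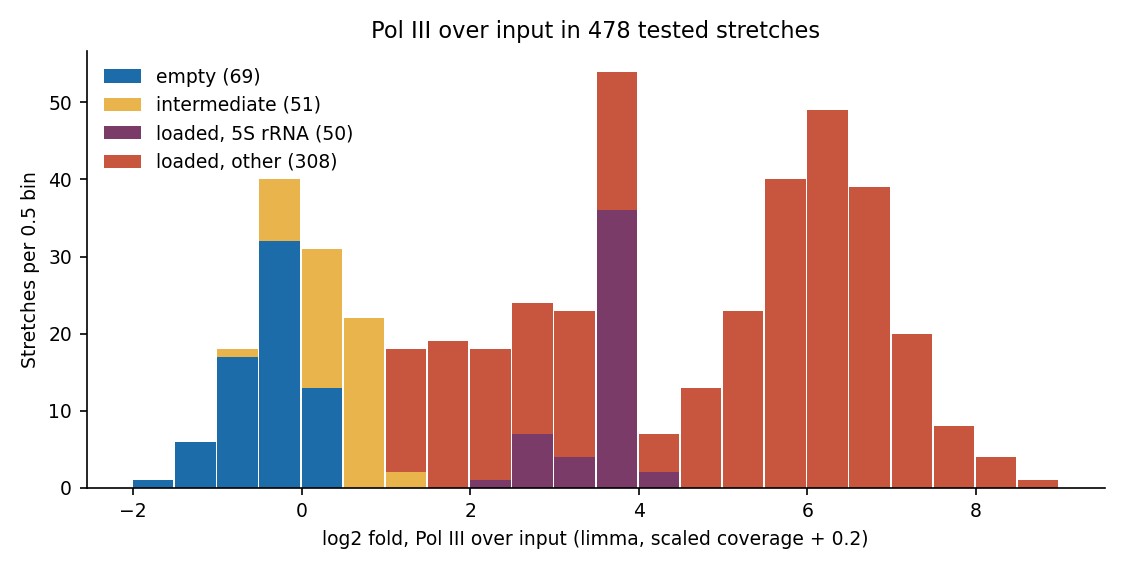
Number of tested stretches per 0.5 of log2 fold of Pol III over input (limma on log2 of scaled coverage plus 0.2), coloured by state, with the 5S rRNA genes shown apart. The bars form a low mode around 0 and a high mode between 6 and 7, and no bin between them is without stretches.

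By promoter type, all 50 type 1 and all 11 type 3 stretches were loaded, against 74.9% of all tested stretches, while 246 of 348 tested type 2 stretches were (70.7%). Types were assigned by gene class and not from promoter sequence, so that every tRNA gene, tRNA-Sec among them, was counted as type 2. Among the type 3 genes, which carry their promoter upstream, U6atac, the RNA of the minor spliceosome, had the most Pol III: 97.4, 75.3, 174.4 and 197.7 in the RPC1 and RPC4 libraries against 0.36 and 0.00 in input. RNase MRP RNA, which takes part in rRNA processing, had 92.5, 59.8, 118.0 and 100.2. 7SK, which holds the elongation factor P-TEFb in check, had 77.3, 66.6, 105.2 and 109.8. The input values at both lay between 0.73 and 0.97. The 2 Y RNA genes, whose products bind the Ro protein, averaged 58.8 ± 23.3 and 34.8 ± 9.0 (SD, n = 4). RNase P RNA, the catalytic RNA that trims the 5′ end of tRNA precursors, was the lowest of the single-copy genes in this type, at 8.03, 7.99, 15.2 and 11.8 against 0.36 and 0.72, a log2 fold of 3.77 (SE 0.33). It lay above input with the main scaling but had a log2 fold of -0.78 with file totals. The 5 U6 genes, which code for an RNA at the core of the spliceosome, did not share 1 level. Coverage was 61.4 and 35.8 at the pair on chromosome 12, 40.3 and 9.26 at the pair on chromosome 10, and 7.52 on chromosome 9. All 4 Pol III libraries lay above both inputs at the lowest of them, with 6.02, 4.33, 10.2 and 9.57 against 0.62 and 0.65. Its log2 fold was below 0 with file totals (-1.60) and with median-of-ratios scaling (-0.22), and the lower U6 gene on chromosome 10 was at -0.58 with file totals.

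The 2 7SL genes, which code for the RNA of the signal recognition particle and whose promoter has internal elements, had 89.8, 82.6, 112.6 and 96.1 (near Rps29) and 124.2, 100.9, 150.4 and 123.1 (near Nemf). The vault RNA gene averaged 133.2 ± 38.0. The 50 5S rRNA stretches lay between 6.60 and 22.6 with a median of 20.7, and with file totals the highest of them (126067623) had a log2 fold of -1.06 in place of 3.74. Their individual levels cannot be separated. In all 50, most of the covered bases had fractional coverage, which occurs where reads appear to have been divided among several places, and 19 of them shared all 6 values with another stretch. Together they held 4.0% of the Pol III load on 9.4% of the stretches.

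The tRNA genes covered all 20 amino acids and selenocysteine, and each of these 21 groups had at least 1 loaded single-gene stretch. Of 49 anticodons, 46 had a loaded single-gene stretch. The 3 without were each a single copy: tRNA-His (ATG) with a coverage of 1.055, tRNA-Ser (GGA) with 0.83 and tRNA-Ile (GAT), not tested, with 0.56. Within a group the copies were spread far apart. tRNA-His ran from 0.96 to 288.4, tRNA-Ala from 0.079 to 294.2 and tRNA-Gln from 0.16 to 136.4. In 11 groups, loaded and empty copies stood side by side. Median coverage was highest for tRNA-Tyr (76.1, 7 of 8 tested loaded), tRNA-Arg (74.0, 18 of 20) and tRNA-Sec (54.9, its only copy), and lowest for tRNA-Cys (1.09, 7 of 48) and tRNA-Ala (0.90, 12 of 19). The low median of tRNA-Ala came with 13 copies in 1 run on the X chromosome (132891991 to 133125125) at 0.17 to 0.61, all too low to test. The other 21 had a median of 11.95. As a share of the load, the single-gene stretches of tRNA-Arg held 6.94% ± 0.17 (SD, n = 4), tRNA-Leu 4.93% ± 0.08 and tRNA-Gly 4.58% ± 0.11. tRNA-Trp held 1.78% ± 0.06 and tRNA-Phe 1.38% ± 0.08. tRNA-Cys, with 10.5% of the stretches and 9.01% of input, held 2.26% ± 0.23.

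**Figure D3:**
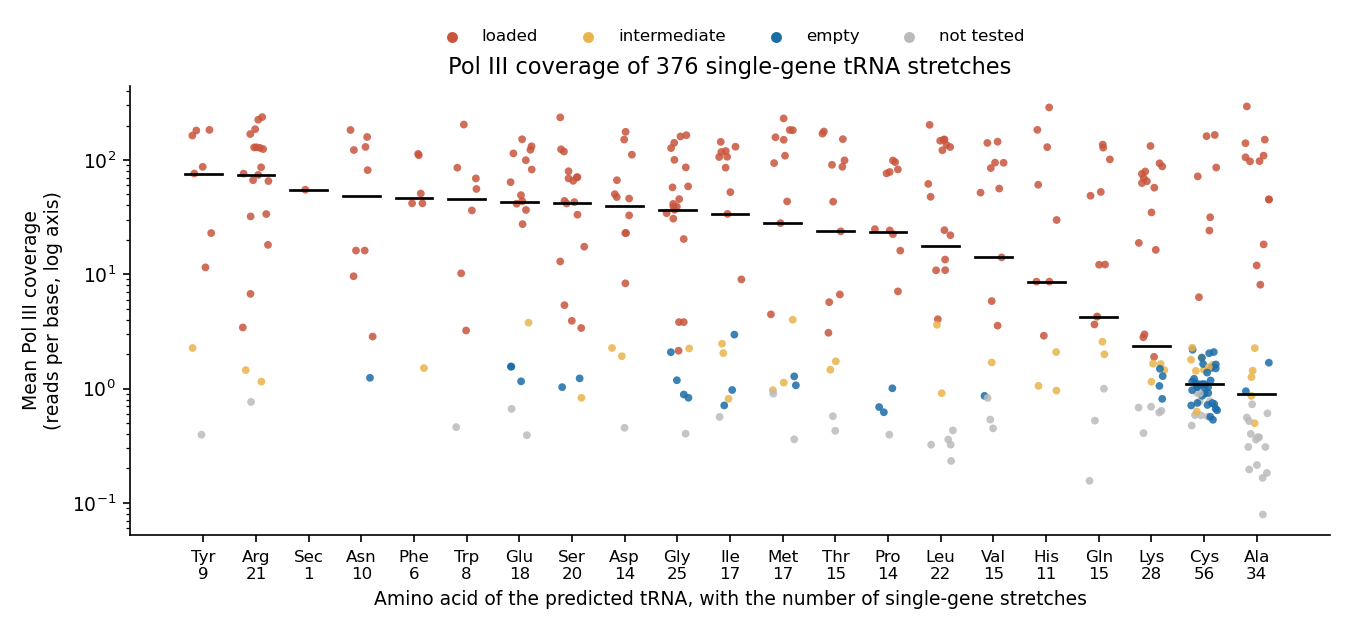
Mean Pol III coverage (reads per base, log axis) of the 376 single-gene tRNA stretches, grouped by the amino acid of the predicted tRNA and ordered by the group's median (black bar). The number under each name is the number of stretches. Points are coloured by state, and every group has at least 1 loaded stretch, while the points of tRNA-Cys gather near 1.

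Runs of neighbouring stretches differed in how many were loaded. Runs were taken as at least 8 stretches with gaps of at most 500 kb, which gave 9, and their counts are read against the 74.9% loaded among all tested stretches. On chromosome 1 (172963923 to 173073939) 25 of 25 stretches were loaded, and on chromosome 11 (68850355 to 68938900) 14 of 14. In the chromosome 1 run a median of 64.6% of covered bases had fractional coverage. Its copies thus appear to share reads and are not independent of each other. The 5S rRNA genes on chromosome 8 were loaded in 50 of 50 and the run on chromosome 17 in 7 of 8. The largest run, on chromosome 13 from 21252504 to 22142786, had 46 loaded and 4 empty among 55 tested, and the next on the same chromosome (23362140 to 23622438) 34 loaded and 0 empty among 39. The run on chromosome 3 (96115027 to 96305591) had 17 loaded and 3 empty among 26. The counts on chromosomes 3, 13 and 17 are not far from the share over all tested stretches. On chromosome 6 (47730358 to 48313752), 4 of 44 tested stretches were loaded and 31 empty. It held 0.94% of the Pol III load, against 8.20% of input and 9.77% of stretches. It is made up of 48 tRNA-Cys stretches, 1 of 40 tested loaded, and of the 2 Y RNA genes and 2 other stretches. tRNA-Cys copies elsewhere were loaded in 6 of 8, again near that share. Over all single-gene tRNA stretches outside tRNA-Cys, 216 of 276 tested were loaded and 25 empty. The run on the X chromosome, 14 stretches with the 13 tRNA-Ala copies named above, was too low to test and held 0.021% of the load.

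The tRNA-Cys copies included a large set of identical genes that were not loaded and a small set that were. Of the forms held by 1 stretch, most of those tested were not loaded either. In 29 stretches the gene was identical base by base, and of 27 tested 0 were loaded and 22 empty, with coverage from 0.53 to 2.28. In another 4 stretches the gene shared a sequence of its own, and all 4 were loaded, at 71.9 to 165.6. The genes of both sets follow, with a further form held by 2 stretches. Capitals mark the 3 positions at which the first 2 forms differ.
tRNA-Cys (GCA), 29 stretches, here chr6:48221925-48221996, plus strand: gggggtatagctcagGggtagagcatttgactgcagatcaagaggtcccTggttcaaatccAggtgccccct
tRNA-Cys (GCA), 4 stretches, here chr11:97850237-97850308, minus strand: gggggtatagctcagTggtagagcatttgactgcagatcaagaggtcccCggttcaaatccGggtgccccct
tRNA-Cys (GCA), 2 stretches, here chr17:71948611-71948682, plus strand: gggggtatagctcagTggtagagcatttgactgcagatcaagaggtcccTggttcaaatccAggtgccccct
Counted from 1 at the 5′ end of the gene, with the base of the 29 first, the changes are G16T, T50C and A62G. Over all tested tRNA-Cys stretches, G16T was present in 6 of 7 loaded, 1 of 33 empty and 0 of 8 intermediate ones. T50C was present in 4 of 7, 1 of 33 and 1 of 8, and A62G in 6 of 7, 1 of 33 and 1 of 8. The 3 positions were chosen by comparing the sets of 29 and 4. Those sets supply 4 of the 7 loaded and 22 of the 33 empty stretches, so the counts are in part fixed by the choice. Outside them, G16T lay in the form of 2 stretches (1 loaded, 1 empty) and, with A62G, in 1 loaded stretch. Copies of 1 set share their sequence and, in part, their reads, since a median of 39.3% of covered bases in the set of 29 had fractional coverage. They are not independent of each other.

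Genes identical in sequence did not all have the same load. The 376 single-gene tRNA stretches held 224 distinct gene sequences, and 46 of these occurred more than once, in 198 stretches. In 34 of the 46 sets every tested copy was loaded, in 6 loaded and other copies were mixed, in 2 no tested copy was loaded, and 4 sets had no tested copy. Within a set the log2 fold still ranged over a median of 2.26. 2 sets held both loaded and empty copies. The first is tRNA-Gly (GCC), with 7 identical copies of this gene.
tRNA-Gly (GCC), here chr1:172975116-172975186, plus strand, B box in capitals: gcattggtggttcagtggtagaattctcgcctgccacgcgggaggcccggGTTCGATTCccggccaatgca
The copy on chromosome 1 (172974966) had coverage of 112.9 and 78.4 in RPC1 and 181.7 and 192.5 in RPC4, against 1.02 and 1.07 in input, a log2 fold of 6.61 (SE 0.21). That on chromosome 11 (68932146) had 138.8, 89.0, 131.6 and 149.1 against 1.09 and 1.23. The copies on chromosome 13 averaged 57.6 and 45.4. By contrast, both copies in an intron of Vac14 on chromosome 8 were empty. At 113154303 the values were 1.37, 2.10, 1.36 and 3.50 against 2.49 and 1.59, and at 113154996 they were 1.46, 0.71, 1.81 and 0.75 against 1.74 and 0.93. The Pol III and input values overlapped at both. Fractional coverage made up 30.9% and 37.4% of covered bases at these 2 copies, against 0% to 15.2% at the loaded ones. Identical copies that share reads are not independent of each other, and how far this shaped their values was not tested. The seventh copy, in an intron of Trim2 on chromosome 3 (84032783), was just loaded, at 1.499, 1.71, 3.14 and 2.22 against 0.61 and 0.61 (log2 fold 1.36, SE 0.39, adjusted p = 0.0111). This last call depended on the settings: with file totals its log2 fold was -3.05 and with median-of-ratios scaling -1.75, and it missed the threshold with all 12 libraries in 1 fit, with group weights and with 150 bp at the summit.

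These copies differ only outside the gene. The 40 bases that follow each of them are shown because Pol III terminates there, with the first run of 4 or more T in capitals.
Empty copy, chr8:113154413-113154452, minus strand: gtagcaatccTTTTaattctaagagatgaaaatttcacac
Empty copy, chr8:113155106-113155145, minus strand: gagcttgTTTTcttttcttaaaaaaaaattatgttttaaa
Loaded copy, chr3:84032893-84032932, minus strand: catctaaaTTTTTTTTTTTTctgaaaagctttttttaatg
Loaded copy, chr13:21802520-21802559, plus strand: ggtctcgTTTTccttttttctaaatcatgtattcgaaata
Loaded copy, chr13:23609143-23609182, plus strand: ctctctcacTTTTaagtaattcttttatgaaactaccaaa
Loaded copy, chr11:68932256-68932295, minus strand: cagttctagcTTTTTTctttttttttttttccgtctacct
Loaded copy, chr1:172975187-172975226, plus strand: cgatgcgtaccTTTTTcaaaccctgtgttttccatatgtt
A T run followed the gene in the empty as in the loaded copies. Coverage in the libraries titled H3K4 was 0.0094 and 0.10 at the 2 empty copies, 2.23 at the copy in Trim2 and 1.57 to 15.9 at the other 4. These libraries also chose the stretches used for scaling, so their values are not independent of the folds. The second set is the tRNA-Cys form of 2 stretches shown above. Its copy on chromosome 17 (71948461) was loaded, at 20.3, 13.1, 33.8 and 29.2 against 0.28 and 1.02 in input, and that on chromosome 9 (104306236) was empty, at 0.62, 0.61, 1.02 and 1.87 against 1.37 and 2.00. A larger set with no empty copy, the 8 of tRNA-His (GTG), still ran from 2.90 to 288.4.

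Loaded and empty single-gene tRNA stretches differed in what surrounds the gene and in its promoter boxes, given here as counts without a test, for 223 loaded, 43 intermediate and 58 empty stretches. The B box core GTTCNANNC lay in 95.1%, 86.0% and 86.2% of the genes, and 80.1% of all 532 stretches hold it on either strand. Its exact form GGTTCGA, which overlaps the core, lay in 69.5%, 44.2% and 15.5% (44.2% of all stretches). The A box string TGGCNNAGT lay in 12.1%, 9.30% and 6.90% (14.5% of all stretches). Its looser form TGGCNNA lay in 37.2%, 20.9% and 12.1% (63.2% of all stretches). Both are narrow patterns, so a gene that misses them may still hold an A box. A run of TTTT began within 40 bp after the gene in 95.5%, 72.1% and 65.5%, and 98.3% of all stretches have such a run somewhere on either strand. At least 20 of 21 stem pairs of the cloverleaf were formed in 222 of 223 loaded, 34 of 43 intermediate and 49 of 58 empty genes. A start of a protein-coding gene lay within 1 kb of 36 loaded genes (16.1%) and of 0 intermediate and 0 empty ones, against 9.40% of all 532 stretches. Of the empty stretches, 33 of 58 are tRNA-Cys copies, many identical, which weighs on each of these shares. The top gene, tRNA-Ala (AGC) on chromosome 5, lacks the core as written and has GATCNANNC in its place. That variant, searched for after this had been seen, lay in 9 of 11 loaded genes that lack the core (6 tRNA-Met and 3 tRNA-Ala) and in 2 of 8 empty ones. It is found in 13.5% of all stretches on either strand. The matches are letters in a window and no measure of TFIIIC.

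The load was shared by many genes, and those ranked highest with 1 antibody held nearly the same share with the other. Load is the summed coverage of a stretch (mean times length) as a share of the library's sum over all 532. The 10 highest stretches of a library held 12.2% ± 0.20 (SD, n = 4), the top 25 held 25.3% ± 0.49, the top 50 held 42.0% ± 0.60, the top 100 held 66.7% ± 0.87 and the top 200 held 90.1% ± 0.73. In input the top 50 held 29.6% and 27.7%. To reach 50% of the load took 63 to 66 stretches, 80% took 139 to 146 and 90% took 193 to 206, against 127 and 132, 291 and 297, and 372 and 375 in input. A share ranked on its own values is raised by noise. Ranked by the other antibody, the top 50 stretches held 39.7% to 41.3% of each Pol III library, against 41.5% to 42.8% by a library's own ranking, whereas the top 50 of each input held 25.9% and 24.3% when ranked by the other input. The Gini coefficient, 0 for equal shares and 1 for all load on 1 stretch, was 0.675 ± 0.005 for Pol III and 0.391 for input.

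**Figure D4:**
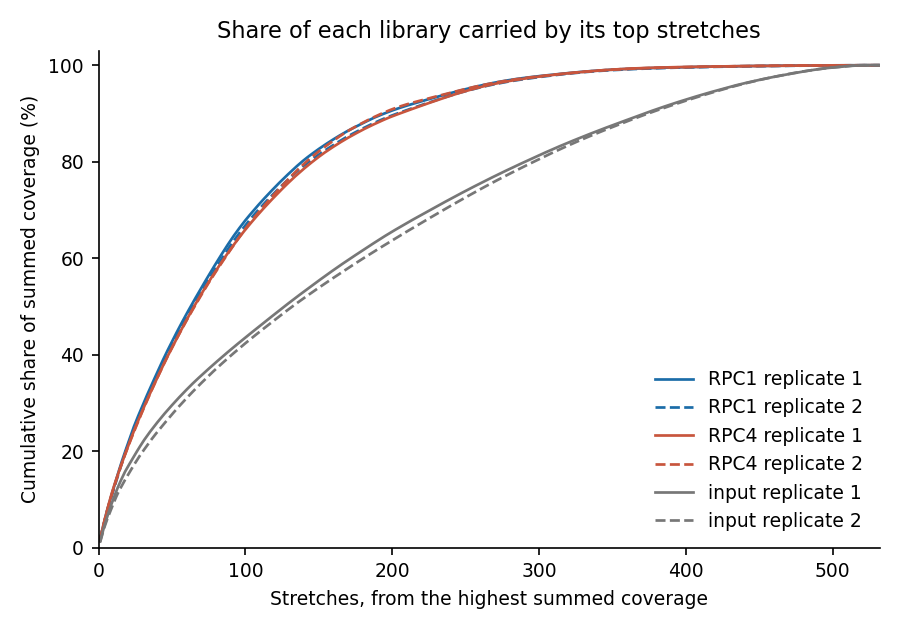
Cumulative share (%) of the summed coverage of each library held by its top stretches, counted from the highest. The 4 Pol III curves lie together and reach 50% at 63 to 66 stretches, and the 2 input curves reach it at 127 and 132.

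The stretches with the most load were often those with 2 genes. Of the 10 highest, 7 held several tRNA genes, 2 a single tRNA gene and 1 was unmatched, and their median length was 673 bp. The highest, with tRNA-Glu (CTC) and tRNA-Leu (CAA) on chromosome 11 (58115529 to 58116232), held 1.66% of the load at a coverage of 228.0, and the pair tRNA-Thr (AGT) and tRNA-Ser (GCT) on the same chromosome (68876096 to 68876775) held 1.44%. The single genes with the largest shares were tRNA-Ala (AGC) on chromosome 5 (1.13%) and tRNA-His (GTG) on chromosome 2 (1.11%). Per base, so that long stretches weigh no more than short ones, the top 50 held 39.2%. Among the top 100, 70 were single-gene tRNA stretches of 19 groups, 16 held several tRNA genes, 6 other annotated genes and 8 were unmatched, and all 100 were loaded. Loaded stretches together held 98.9% of the load, intermediate ones 0.50%, empty ones 0.49% and those not tested 0.10%. 7 unmatched stretches in a run on chromosome 6 (128709861 to 128793580) were all loaded, at 63.8 to 126.1, and held 5.17% ± 0.48 of the load. They hold no cloverleaf that passed the search. Their median coverage in the libraries titled H3K4 was 54.0, against 5.16 for loaded single-gene tRNA stretches.

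Pol III stood higher over the gene than over the 150 bp on either side. In loaded stretches the median log2 ratio of body to flanks was 0.98 and 1.04 in the RPC1 libraries and 1.12 and 1.09 in the RPC4 libraries, and 0.09 and -0.03 in input. The body held 43.4% to 45.4% of the Pol III coverage of loaded stretches on 30.4% of their length, and 31.4% and 30.8% of the input. In empty stretches the same median was 0.11 and -0.26 in RPC1, 0.06 and 0.04 in RPC4, and -0.11 and -0.37 in input. The ratio within each library was tested against that in input with limma. It was higher in 160 of 478 stretches (33.5%) and lower in 2 (0.418%), with a median difference of 1.01. Of the 160, 156 were loaded, 4 intermediate and 0 empty. Among them, 40 were 5S rRNA stretches, where most covered bases had fractional coverage, so these are not independent of each other. In loaded stretches the median difference was 1.24, and it was above 0 in 320 of 358. In simulated data the unweighted limma test of this ratio called too many stretches without a difference, while 1 weight per group did not. So 160 may be too many, and adjusted p-values of single genes may be too low. The count depended on the weighting and on single libraries. It was 61 with 1 weight per group. It fell to 13 without RPC1 replicate 1, 14 without RPC1 replicate 2, 64 without RPC4 replicate 1 and 58 without RPC4 replicate 2, and rose to 260 and 251 without input replicate 1 or 2.

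Single genes ranged widely in this contrast. The largest was at tRNA-Ser (AGA) on chromosome 13 (22019576), with Pol III coverage of 11.4 over the gene and 1.19 over the flanks, and input of 0.076 and 0.65, a log2 difference of 5.02 (SE 0.47, adjusted p = 0.00615). tRNA-His (GTG) in an intron of Nfib on chromosome 4 had 10.3 over the gene and 1.12 over the flanks, a difference of 4.29 (SE 0.47). Both are low stretches with higher coverage over the gene than over the flanks. The call at tRNA-His was lost with 1 weight per group (adjusted p = 0.0514, limma). At tRNA-Tyr (GTA) on chromosome 14 (51709014), the body at 281.1 and the flanks at 153.9 differed less, and its contrast of 3.47 (SE 0.63) rests on an input of 0.00 over the gene. It missed the threshold without any 1 of the 4 Pol III libraries (adjusted p = 0.0654 to 0.0781). At the other end, tRNA-Gln (CTG) on chromosome 3 (96202832) had 17.97 over the gene and 10.8 over the flanks but 2.88 and 0.61 in input, a contrast of -1.25 (SE 0.31, adjusted p = 0.0342). The other stretch called lower was a 5S rRNA gene (126108285) with 2.12 over the gene and 9.67 over the flanks, where most covered bases had fractional coverage. Neither call of a lower body held with a replicate block (adjusted p = 0.0536 at both, limma), with 1 weight per group (0.0979 and 0.154) or without any 1 of the 4 Pol III libraries. With the block or the group weights, 0 stretches were lower. tRNA-Sec had 105.7 over the gene and 40.4 over the flanks, yet a contrast of -1.04 that did not pass the test (adjusted p = 0.197). Its input was 2.13 over the gene and 0.28 over the flanks.

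The summit of coverage lay inside the gene in most loaded single-gene tRNA stretches. Of 223, 178 had it in the gene, 22 upstream and 23 downstream, at a median of 43 bp after the gene's start (quartiles 20 and 56). The 2 antibodies were not placed alike. In the mean profile of 274 loaded single-gene stretches, RPC1 peaked at 104.6 and 76.5 reads per base, 17% and 19% along the gene, and RPC4 at 147.4 and 154.0, 59% and 65% along it. The log2 ratio of upstream to downstream flank had a median of 0.44 and 0.63 in the RPC1 libraries and of -0.40 and -0.86 in the RPC4 libraries, with -0.21 and -0.13 in input. Upstream coverage was the higher in 209 and 212 of 287 loaded single-gene stretches with RPC1 and in 93 and 50 with RPC4. The difference between the antibodies had a median of 1.15 and was above 0 in 282 of 287. Tested stretch by stretch with limma, it passed the adjusted threshold in 0 of 388 (0%), with 79 higher for RPC1 and 1 for RPC4 at an unadjusted p under 0.05. Over both antibodies, the upstream-to-downstream ratio against input was higher in 0 stretches (0%) and lower in 1 of 388 (0.258%), a tRNA-Ser (AGA) gene on chromosome 13 with 11.05 upstream and 40.7 downstream. At an unadjusted p under 0.05 there were 31 higher and 27 lower.

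**Figure D5:**
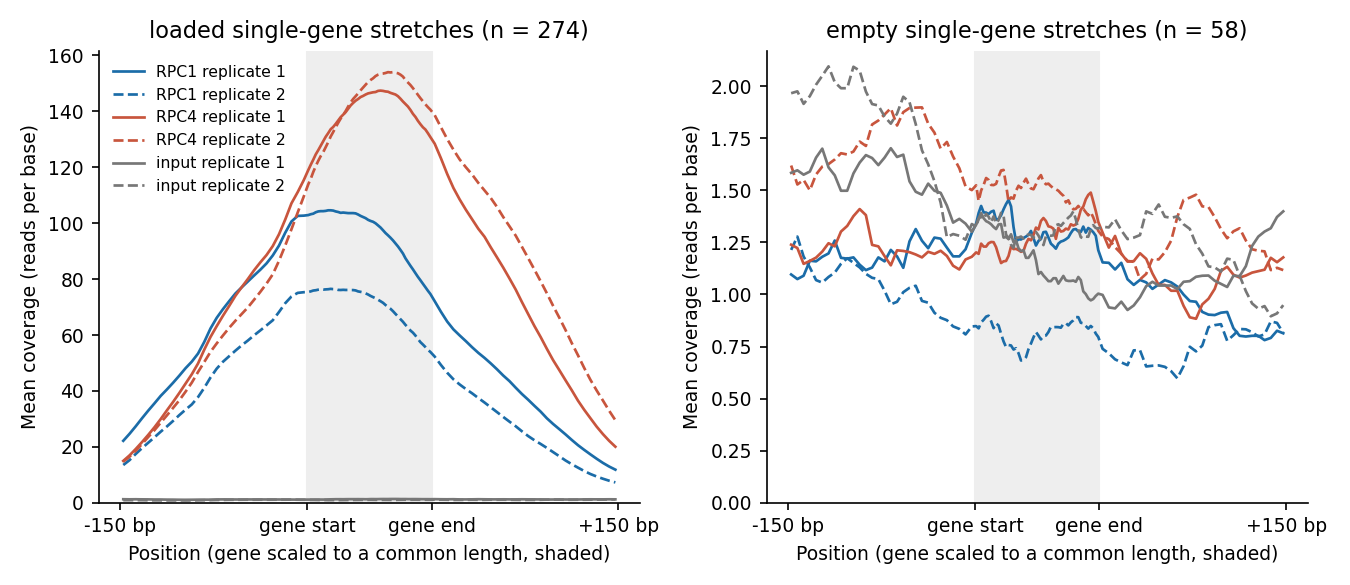
Mean coverage (reads per base) along 274 loaded and 58 empty single-gene stretches in each library, from 150 bp upstream to 150 bp downstream, with genes scaled to a common length (shaded). The scales of the panels differ. In loaded stretches RPC1 peaks near the gene start (104.6 and 76.5) and RPC4 further along the gene (147.4 and 154.0), while in empty stretches no library's mean rises above 2.10.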

How the data were processed

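The deposited files hold coverage, a signal counted per base by the authors, over 532 stretches in mm9 (per the submitters' processing notes). A lone read adds 1 over 76 bp, and fractional values occur. Which aligner was used, and how reads were weighted, is not given in the sources used here. Reads outside the stretches are unknown, so file totals are not library depths, and no interval from counts is given. 1 place on the X chromosome, listed with differing ends, was left out.

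Genes came from GENCODE vM1 annotation on NCBIM37 and a cloverleaf search requiring at least 17 of 21 stem pairs (18 in longer stretches); nearest starts are those of protein-coding genes in that annotation. limma 3.58.1 (R 4.3.3, mean-variance trend) was fitted to RPC1, RPC4 and input, 1 coefficient per group, on log2(scaled coverage + 0.2), two-sided, with Benjamini-Hochberg adjustment over all tested stretches at 0.05. Stretches under the 0.1 quantile of mean scaled coverage over these 6 libraries were left out. Tables were handled with Python 3.11.15. The functions were tested on simulated data: there the body-to-flank test called too many stretches without a difference, and with 1 weight per group it did not, so that alternative was added.

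Members, lists and named genes were chosen with earlier results of these data known. Named were the highest loaded and lowest tested single-gene stretch of each group, all single-copy small RNA genes, identical genes with loaded and empty copies, the 5 largest and smallest body contrasts, and the sides of the widest gap. tRNA-Met on chromosome 13, vault RNA and the stretches at the thresholds were named after their values were seen. Alternatives were other scalings, pseudocounts, filters, flanks, libraries and a replicate block. Same-numbered replicates deviated together hardly at all (correlations of -0.0466, -0.0075 and 0.0442 across stretches), and no label pairs them, so the numbers were not used.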

Additional observations from a re-analysis of the deposited data

Results flagged for a closer look

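The position of the signal differed between the antibodies. In loaded single-gene stretches the median log2 ratio of upstream to downstream flank was above 0 in both RPC1 libraries and below 0 in both RPC4 libraries, and the median difference was 1.15. No stretch passed the adjusted threshold in the limma test of the difference. No group had enough libraries for a check of single outlying samples.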

How the results depend on the processing

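Counts of stretches above, below, loaded and empty depended on the scaling. With file totals they were 155, 267, 132 and 293, with RPC1 alone above in 142 and RPC4 alone in 148. With median of ratios they were 200, 179, 194 and 259, with 25 intermediate. 1 was below with coverage as deposited and 1 with a pseudocount of 0.5, and 2 were below without the filter, with 80 intermediate. Empty stretches numbered 40 when anchored to the lowest Pol III stretches. With all 12 libraries in 1 fit, 95 were intermediate. Over the 150 bp at the summit, 24 were empty and 96 intermediate. With 1 weight per group (added after seeing the data), 27 were empty, 99 intermediate, and the body was higher in 61 and lower in 0. Leaving out 1 library, 0 to 5 were below input, 45 were empty without input replicate 1, the body was higher in 13 to 260 and lower in 0 to 23, the upstream flank higher in 0 to 56 and the downstream flank in 0 to 55. A lone library left in a group is assumed to vary like the others. Upstream and downstream flanks were higher in 5 and 4 with a pseudocount of 0.5, in 3 and 6 with all 12 libraries, and in 3 and 3 with the outer 75 bp, where the body was lower in 1. With file totals, the log2 fold over input of 25 named stretches turned below 0, counting those that passed the threshold in either fit. Among these were 5S rRNA genes (-1.06, -2.07, -1.49 and -2.01), RNase P RNA (-0.78), U6 on chromosomes 9 (-1.60) and 10 (-0.58), and the unmatched stretch at 94738985 (-3.52). tRNA genes among them were Arg (-4.02, -0.25 and -3.51), Asn (-0.12), Asp (-3.83), Gln (-3.39 and -1.67), Glu (-4.29), Gly (-0.96 and -3.05) and His (-2.85). The others were Lys (-2.63), Phe (-4.20), Ser (-2.77 and -3.86), Trp (-3.51) and Tyr (-3.20). With median of ratios the fold turned in 18 by the same count. These included 5S rRNA genes (-0.68, -0.13 and -0.62), U6 on chromosome 9 (-0.22) and the same unmatched stretch (-2.17). The tRNA genes were Arg (-2.77 and -2.15), Asp (-2.53), Gln (-2.10 and -0.26), Glu (-2.99), Gly (-1.75), His (-1.52), Phe (-2.91), Ser (-0.92 and -1.39), Trp (-2.16) and Tyr (-1.90). The share of the top 50 was 42.8% with input subtracted, 39.15% per base, 44.82% without mostly fractional stretches and 40.47% when ranked by the other antibody, and 50% of the load took 62.75, 69.5 and 59 stretches in the first 3. The cause of these changes was not tested.

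A replicate block left 359 loaded, 62 empty and 57 intermediate stretches and 0 with a lower body. Of 10 named body contrasts it ended 2 calls, both of a lower body, and among 82 named folds over input it changed 1 call, that of tRNA-Tyr (GTA) on chromosome 13, which passed with it (adjusted p = 0.0412, limma). Beyond these, 101 of 165 recomputed counts and shares stayed within 1.5 times or 1 SD. Depth limits the input side: 5.41 and 5.50 reads lay on a median stretch.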
